A study of Homo sapiens with 4 samples.

Results

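The loci described here are 407 designed human sequences whose selected adenosine, at position 51, lay in an AAACH or UAACH motif, that is, with A or U 2 bases upstream (-2), A 1 base upstream (-1), C directly downstream (+1) and any base but G (H) 2 bases downstream (+2). Membership was set by sequence alone, from the letters at positions 49 to 53 of each designed sequence, and no measured value of a locus entered it. The choice of these motifs was made with earlier results of these data known. The loci make up 407 of the 3488 selected loci and, at 3 oligonucleotides per sequence, 1221 of the 11999 oligonucleotides in the pool. By the authors' design classes, 33.9% of the loci came from the class designed around adenosines called m6A (the m6A class) and the other 269 from the class designed around unmethylated DRACN motifs (the unmodified class). The m6A class held 89 AAACU, 15 AAACA, 5 AAACC, 20 UAACU, 5 UAACA and 4 UAACC loci. The unmodified class held 61, 73, 59, 32, 22 and 22 of the same 5-mers.

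The study asked whether the METTL3–METTL14 complex has a sequence preference of its own when no other cellular factor is present. RNA transcribed in vitro from the pool was incubated with recombinant METTL3–METTL14 (methylated group, 2 libraries) or without it (unmethylated group, 2 libraries). From 500 ng of RNA, all 4 libraries then went through miCLIP2, in which an antibody against m6A is crosslinked to RNA and reverse transcription stops at the crosslink. All groups therefore share the same synthetic RNA, made without cellular modification, and the same antibody step. The labels number the libraries as replicates 1 and 2 of each group and say nothing about separate methylation reactions, so that every p-value below measures only the spread between these libraries, which may be technical.

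N6-methyladenosine (m6A) is the most abundant internal modification of messenger RNA. METTL3 carries the catalytic site and METTL14 helps to hold the RNA, and the complex methylates adenosines within DRACH motifs (D stands for any base but C, R for a purine, H for any base but G). Motifs with G directly before the adenosine, above all GGACU, are the best known targets. The AAACH and UAACH motifs have no G at either upstream position and belong to the DRACH definition at its outer edge.

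The sequences below are examples of the loci on which the results turn, chosen from both classes and from AAACH and UAACH motifs: 8 that rose and 2 with many counts that did not pass the test. Each is the 29 bases around the selected adenosine, 5′ to 3′, with T for U, and the capitals mark the 5-base motif whose central base is position 51. The first 5 are of the m6A class and rose in the methylated libraries, the next 3 are of the unmodified class and rose, and MAPK12 (m6A class) and IQCC (unmodified class) did not pass.
YWHAH: tggggagaagaaAAACAgtgtggtcgaag
GPRIN1: caactccaggaaAAACAgtcccggtgccc
GALNT18: ggcaggagctgcAAACTtgggcacggcgg
ZNF263: aggattggcataAAACTgaaaaggagttc
SETD3: atatgaagagagTAACCttgggctgttgg
VARS1: taggagtgcctgAAACCtgtactgaatgg
ZSCAN25: ctgacgaagtcaAAACCcacagctccttc
ZIC2: gacccacacaggTAACCgcgggctgggac
MAPK12: cggtgctctcagAAACCtcagagctggtg
IQCC: tacctacttcttAAACAaacactgagatc

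The 4 libraries held 10483825 and 12028474 counts (unmethylated) and 13110615 and 13265092 counts (methylated), a count being a truncation event assigned to 1 position of an oligonucleotide. Levels are given as CPM, a position's count scaled to the same library total, and a locus is the sum of its 3 tagged oligonucleotides. Of the 407 coordinates in the authors' table, 350 fell within the span of exactly 1 RefSeq gene, 52 within several and 5 within none, and a locus with 1 gene is called by that gene. Depth at these loci was low: the median sequence total per library was 604 counts in the m6A class and 262 in the unmodified class, and the median count at position 51, summed over the 4 libraries, was 6 and 1. At 35 loci of the m6A class (25.4%) and 47.96% of the unmodified class no library held a count at position 51. A count of 0 allows up to 3 counts in a library and does not show that a locus stayed unmethylated.

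Summed over the m6A-class loci, the signal at the selected adenosine was 103.2 and 84.1 CPM in the unmethylated libraries and 237.1 and 244.8 CPM in the methylated ones. Both methylated libraries were above both unmethylated libraries. The means were 93.7 ± 13.5 and 241 ± 5.40 CPM (SD, n = 2 each), a ratio of 2.57, with the 4 ratios of single libraries between 2.30 and 2.91. The 269 unmodified loci summed to 122.1 and 95.3 CPM without the enzyme and to 153.2 and 159.8 CPM with it. Here too the groups did not overlap, but the distance was smaller, with means of 108.7 ± 18.96 and 156 ± 4.71 CPM (SD, n = 2 each) and a ratio of 1.44 (single libraries 1.25 to 1.68). For each of these sums the exact permutation test over libraries (two-sided) gave p = 0.33, the smallest value that 2 libraries against 2 allow, so no sum in this design can pass 0.05.

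The m6A class gained more than the unmodified class, by 0.83 on the log2 scale, with the differences of single libraries between 0.79 and 0.87 (exact permutation test, two-sided, p = 0.33). A pair of loci bore on its size: without YWHAH and IQCC, which held the most counts of their classes, the log2 changes were 1.28 and 0.86 and the difference 0.42. Taken per 1000 counts of the same sequences, the m6A class went from 3.85 to 9.79 and the unmodified class from 4.85 to 7.21, ratios of 2.54 and 1.49. Over all members, the m6A class thus gained more on both scales, but the classes hold different mixes of 5-mers, and the order was not the same within each.

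In the m6A class the gain lay at the adenosine itself. Among the 21 positions from 10 bases upstream to 10 bases downstream, the sum at the selected adenosine had the ratio of 2.57, while the other 20 ranged from 0.835 at -5 to 1.30 at +3. The adenosine 1 base upstream, which is present in every member, went from 126.9 ± 1.57 to 161.1 ± 3.28 CPM (SD, n = 2 each), a ratio of 1.27. It was 1.13 without GALNT18, picked out after its values were seen, whose counts at that base were 381 and 378 in the methylated libraries. Without GPRIN1, which had the highest mean level at that base, it was 1.31 (1.26 to 1.35). For the unmodified loci the selected adenosine, with a ratio of 1.44, had a lower ratio than the position at +6, with 1.49, when every locus was included. At +6 the sum rested on chr19:16576616, where that base is the adenosine of a GGACG motif with 393, 354, 1182 and 671 counts. Leaving out the locus with the highest mean level at each position in turn, an alternative added after the data were seen, gave 1.81 (1.61 to 2.04) at the selected adenosine, where IQCC was left out. The other 20 positions then ran from 0.914 to 1.38, with 1.17 at +6, so the adenosine had the highest ratio of the 21. For the m6A class the same step gave 2.41 at the adenosine and 0.935 to 1.33 elsewhere. At -3 the unmodified ratio was 1.35, and 1.15 without CCNQ, which held 265, 130, 769 and 823 counts there. CCNQ was picked out after its values were seen.

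By motif, with every locus included, A at -2 went with the larger gain in the m6A class and with the smaller gain in the unmodified class. In the m6A class the AAACH sum rose by a ratio of 2.74 (2.42 to 3.14 over single libraries) and the UAACH sum by 1.88 (1.70 to 2.09), a log2 difference of 0.55 (0.45 to 0.65). Among unmodified loci the ratios were 1.33 (1.15 to 1.55) and 1.99 (1.54 to 2.69), a log2 difference of -0.61 (-0.93 to -0.30). Each difference had p = 0.33 in the exact permutation test, the smallest it can give. When loci with at least 100 counts in every library were weighted equally, each by its share of its sequence total, the difference in the m6A class turned to -0.31, so that its direction rests on the loci with many counts.

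The 89 AAACU loci of the m6A class gave the best-filled 5-mer, with a ratio of 2.75 (2.57 to 2.94), and 2.49 without GALNT18, which held 23.3% of their counts. The 61 AAACU loci of the unmodified class had a ratio of 1.19 (0.914 to 1.54). At this identical 5-mer the classes differed by 1.21 on the log2 scale (0.93 to 1.49; exact permutation p = 0.33), and by 1.15 without the locus with most counts of each class. At AAACA the m6A class was ahead too, by 1.59 (1.40 to 1.78) and 1.10 without the leading loci. The unmodified class was ahead at AAACC, with a difference of -0.98 (-1.30 to -0.65), and at UAACU, with -0.31 (-0.52 to -0.10). At UAACC the difference was -0.50 (-1.44 to 0.44) and at UAACA 0.01 (-0.06 to 0.08), both within the spread of the libraries. Without the leading loci these 4, in the same order, became -0.28, 0.07, 0.83 and 0.77, so no order of the classes was settled at these 5-mers. The other 5-mers of the m6A class rested on few loci. AAACA (15 loci) had 2.93 and 2.65 without YWHAH, which held 58.7% of the counts. AAACC (5 loci) had 1.46 and 2.10 without MAPK12, which held 74.2%. UAACA (5 loci) had 1.54 and 2.66 without IST1, UAACC (4 loci) had 2.15 and 2.84 without LOC107985728, and UAACU (20 loci) had 1.97 and 2.15 without GLI4. With the leading locus left out, these m6A-class ratios thus ran from 2.10 to 2.84. Some of them rest on very few counts. Without its leading locus AAACC had 1.34 and 0.831 CPM against 1.75 and 2.79 CPM in the methylated libraries. UAACA had 0.858 and 0.998 against 2.67 and 2.26 CPM, and UAACC 1.43 and 1.75 against 4.65 and 4.37 CPM.

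Among the unmodified 5-mers, those with C at +2 had the largest ratios when every locus was included. AAACC (59 loci) had 2.92 (2.31 to 3.61) and 2.56 without ZSCAN25, and UAACC (22 loci) had 2.90 (1.79 to 5.17) and 1.55 without ZIC2, which held 87.3% of the counts. Against these, AAACA (73 loci) had 0.983 (0.820 to 1.20). IQCC held 55.8% of the AAACA counts, and without it the ratio was 1.27. UAACA (22 loci) had 1.53 and UAACU (32 loci) 2.45, or 2.04 without chr19:16576616. The difference between C and A or U at +2, noticed in these data and then computed, was 1.37 on the log2 scale (1.09 to 1.65; 81 against 188 loci; exact permutation p = 0.33) and 0.90 without the loci with most counts. In the m6A class, with 9 loci against the rest, it was -0.61, and 0.02 without the loci with most counts.

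Against the other selected loci, AAACH and UAACH together stood below GGACH in both classes. The m6A-class ratio of 2.57 compared with 3.92 for GGACH, a log2 difference of -0.60 (-0.88 to -0.32), and the unmodified ratio of 1.44 with 2.34, a difference of -0.69 (-0.999 to -0.38). In the m6A class they lay above the other 3 motif families, GAACH at 1.72, UGACH at 1.80 and AGACH at 1.38, by 0.59 (0.30 to 0.88), 0.53 (0.28 to 0.78) and 0.90 (0.57 to 1.24) on the log2 scale. By that equal weighting the difference from GAACH in the m6A class was -0.04, so that order, too, rests on loci with many counts. Within the unmodified class they lay below GAACH at 1.86, by -0.36 (-0.50 to -0.22). Their difference from AGACH at 1.35 and UGACH at 1.26 was 0.10 (-0.13 to 0.34) and 0.21 (-0.12 to 0.54), both within the spread of the libraries (exact permutation p = 0.667). Of the 8 such differences computed, the other 6 had p = 0.33 in the exact permutation test, and none could fall below 0.05 in this design. Without IQCC, the unmodified ratio of the members was 1.81, near GAACH and above AGACH and UGACH. The distances from these 3 families in the unmodified class thus depended on IQCC. Over 9 alternatives they ran from -0.57 to -0.04 for GAACH, -0.13 to 0.43 for AGACH and -0.12 to 0.54 for UGACH.

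Single loci were tested where 2 or more libraries held 10 or more counts, which left 31 m6A-class loci (22.5%) and 25 of the 269 unmodified loci. With edgeR's quasi-likelihood test over all 142938 such sites of the pool and Benjamini-Hochberg adjustment at 0.05, 12 of the 31 were higher in the methylated libraries and 0 lower, and 5 of the 25 were higher and 0 lower. Over all sites, 3.7% were called higher and 2.01% lower. At an unadjusted p under 0.05, 17 m6A-class loci were higher and 0 lower, and 9 unmodified loci were higher and 1 lower, against 10.4% higher and 8.05% lower over all sites. DESeq2 called 9 and 3 loci higher and 0 lower in either class, all of them among the 12 and 5 of edgeR, against 2.12% higher and 1.26% lower over all sites. Without methylated replicate 1 the calls were 7 and 1 (1.41% of all sites higher), and without methylated replicate 2 they were 5 and 1 (1.09%), with 21 or 22 loci of each class still testable. Leaving out an unmethylated replicate gave 12 and 4 (4.48%) or 10 and 7 (4.19%; 1 unmodified locus lower, 2.33% of all sites). Over all sites, 8.32% were called higher at a minimum of 50 counts, 1.8% against sequence totals and 3.92% with a replicate block, settings that called 8 and 3, 10 and 3, and 12 and 5 of the loci. A locus with few counts in the unmethylated libraries entered the test only if its methylated counts were high, so these counts describe the loci that passed the minimum and not the members as a whole. All 17 called loci had a mean sequence total of at least 1000 counts per library, a depth reached by 52 m6A-class loci and 55 unmodified loci.

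The AAACA loci of YWHAH and GPRIN1 held the most counts of the m6A class. YWHAH, an adaptor of the family that binds phosphorylated proteins, had 250 and 204 counts without the enzyme at chr22:31956482 (plus strand), and 863 and 828 with it. The groups did not overlap, and the level rose from 20.4 ± 4.87 to 64.1 ± 2.41 CPM (SD, n = 2 each), a log2 change of 1.63 ± 0.27 (SE; edgeR adjusted p = 4.21e-04). GPRIN1, which takes part in neurite outgrowth, had 17.1 and 9.64 CPM against 32.8 and 40.6 CPM at chr5:176598091 (minus strand). Its methylated libraries were both above the unmethylated ones, with a log2 change of 1.44 ± 0.30 (SE; edgeR adjusted p = 0.00334), and was not called without methylated replicate 2.

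Among AAACU loci of the m6A class, 8 were called higher. ZNF263, a zinc finger transcription factor, had 25 and 41 counts at chr16:3290723 (plus strand) without the enzyme and 267 and 274 with it. That is a rise from 2.90 ± 0.724 to 20.5 ± 0.205 CPM (SD, n = 2 each), a log2 change of 2.78 ± 0.32 (SE) with the lowest adjusted p of the members, 4.03e-06 in edgeR. GALNT18, of the enzyme family that starts mucin-type O-glycosylation, had 77 and 49 counts against 301 and 302 at chr11:11621765 (minus strand). The level rose from 5.71 ± 2.31 to 22.9 ± 0.136 CPM, a log2 change of 1.99 ± 0.31 (SE; edgeR adjusted p = 2.03e-04). The whole GALNT18 sequence also had more counts in the methylated libraries, a mean of 25531.5 against 15356, and the log2 change measured against that total was 1.496.

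The other AAACU loci called higher had fewer counts. AKNA, an AT-hook protein, had 4 and 8 counts against 55 and 50 at chr9:114377261 (minus strand), a log2 change of 2.85 ± 0.49 (SE; edgeR adjusted p = 5.03e-04), and 1.97 against its sequence total. MUL1, a mitochondrial ubiquitin ligase, had 14 and 13 against 73 and 63 at chr1:20500552 (minus strand; edgeR adjusted p = 0.00210), and MED11, a subunit of the Mediator complex, had 2 and 6 against 26 and 44 at chr17:4733339 (plus strand; edgeR adjusted p = 0.00370). In these 3 loci every methylated count was more than every unmethylated count. PALM2AKAP2, which anchors a kinase, had 1 and 0 counts against 27 and 12 at chr9:110137524 (plus strand), a ratio of pooled CPM of 33.3 with a 95% interval of 5.63 to 1348 that covers counting error only. FRMD8, which binds the iRhom proteins, had 2 and 1 against 16 and 15 at chr11:65412185 (plus strand), a ratio of 8.82 (2.75 to 45.1), and was not called against its sequence total (adjusted p = 0.230). TCFL5, a basic helix-loop-helix transcription factor, had 17 and 19 against 38 and 81 at chr20:62852152 (minus strand; edgeR adjusted p = 0.0413) and lost its call in 5 of the other settings.

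The UAACH motifs of the m6A class gave 2 called loci. SETD3, the methyltransferase of an actin histidine, carried UAACC at chr14:99398947 (minus strand) with 14 and 17 counts against 60 and 58, a rise from 1.37 ± 0.0551 to 4.47 ± 0.144 CPM (SD, n = 2 each). The log2 change was 1.66 ± 0.40 (SE; edgeR adjusted p = 0.0118), and the call was lost without either methylated replicate. The UAACU locus at chr1:2185054 (plus strand), which lies within the spans of both FAAP20 and PRKCZ, had 11 and 10 counts against 67 and 53 (edgeR adjusted p = 0.00175). Its sequence total rose too, from a mean of 7924.5 to 15662.5, and against that total the log2 change was 1.51 (edgeR adjusted p = 0.0488).

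In the unmodified class, all 5 loci called higher had C at +2. VARS1, the valyl-tRNA synthetase, carried AAACC at chr6:31779803 (minus strand) with 5 and 3 counts without the enzyme and 46 and 98 with it. The methylated libraries differed by more than the unmethylated ones but lay far above them, at 5.45 ± 2.74 against 0.363 ± 0.161 CPM (SD, n = 2 each), a log2 change of 3.86 ± 0.54 (SE; edgeR adjusted p = 4.35e-05). ZSCAN25, a zinc finger protein, carried AAACC at chr7:99629403 (plus strand) with 61 and 86 against 233 and 346 counts. The level rose from 6.48 ± 0.941 to 21.9 ± 5.88 CPM, a log2 change of 1.72 ± 0.30 (SE; edgeR adjusted p = 7.42e-04), and without methylated replicate 2 the adjusted p was 0.057. DGKD, a diacylglycerol kinase, had 2.58 and 3.16 CPM against 6.41 and 8.22 CPM at chr2:233436347 (plus strand; edgeR adjusted p = 0.0222) and was not called with DESeq2 (adjusted p = 0.0655). PDIK1L, a kinase, had 3 and 1 against 17 and 15 at chr1:26122024 (plus strand; edgeR adjusted p = 0.0435), all from 1 of its 3 oligonucleotides, and lost its call against its sequence total (adjusted p = 0.0925) and without unmethylated replicate 2 (0.117).

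ZIC2, a transcription factor of forebrain development, was the UAACC locus among the 5, at chr13:99983143 (plus strand), with 5.25 and 2.49 CPM against 14.6 and 10.4 CPM. The groups did not overlap at 3.87 ± 1.95 and 12.5 ± 2.95 CPM (SD, n = 2 each), and the log2 change was 1.68 ± 0.35 (SE; edgeR adjusted p = 0.00379). The ZIC2 sequence as a whole went from a mean total of 1923.5 to 3649 counts. Against that total the log2 change was 0.98 and did not pass (edgeR adjusted p = 0.128). VARS1, by contrast, kept a log2 change of 3.06 against its total, which went from a mean of 2928 to 6105.

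Several loci with many counts did not pass. IQCC carries AAACA at chr1:32207254 (plus strand) and led the unmodified class in counts at position 51: 499 and 390 without the enzyme and 434 and 417 with it. The groups overlapped in counts, at 40.01 ± 10.7 and 32.3 ± 1.18 CPM, and the log2 change was -0.33 ± 0.27 (SE; edgeR adjusted p = 0.573). SETDB1, a methyltransferase of histone H3, had 8.30 and 7.98 CPM against 9.92 and 9.12 CPM at another AAACA (chr1:150946952, plus strand, edgeR adjusted p = 0.796). The AAACA at chr14:49768124 had 6.10 and 7.07 against 14.4 and 8.82 CPM (edgeR adjusted p = 0.167). CNDP2, a dipeptidase with UAACA, had 7.06 and 3.16 CPM against 8.01 and 7.16 CPM (edgeR adjusted p = 0.425). The AAACU at chr19:45769141 had 18 and 22 against 31 and 42 (edgeR adjusted p = 0.480), and the UAACU at chr19:16576616 had 7 and 13 against 46 and 25 (log2 change 1.57 ± 0.50, edgeR adjusted p = 0.0675).

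The m6A class held such loci as well. MAPK12, a stress-activated kinase, carried AAACC at chr22:50253123 (minus strand) with 35 and 62 counts against 80 and 65 (log2 change 0.33 ± 0.35, edgeR adjusted p = 0.683). IST1, which works with the membrane-cutting ESCRT machinery, had 60 and 39 counts against 74 and 80 at UAACA (edgeR adjusted p = 0.642). LOC107985728 had 23 and 29 against 43 and 59 at UAACC (edgeR adjusted p = 0.33), and GLI4 had 34 and 25 against 49 and 58 at UAACU (edgeR adjusted p = 0.437). The change of MAPK12 was smaller than its standard error. A p above the threshold does not show that a locus lacked a gain. The most negative tested change was that of ZBTB44, a zinc finger protein of the unmodified class, with 37 and 16 counts against 14 and 15 (log2 change -1.14, edgeR adjusted p = 0.212), followed by MRPL2, of the mitochondrial ribosome, with 21 and 19 against 16 and 10 (edgeR adjusted p = 0.380). These 2 were named after their values were seen.

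Over all members, including those below the minimum, the mean CPM was higher in the methylated libraries at 76 loci of the m6A class, lower at 27 and without a count at 35. Among the unmodified loci it was higher at 90 and lower at 50, and the rest had no count. Of the m6A-class loci with a count, 41 (39.8%) had both methylated libraries above both unmethylated ones and 6 (5.83%) had both below. Of the 140 unmodified loci with a count, 31 (22.1%) were above and 14 (10%) below. Across all positions of the pool with a count, the shares were 18.3% above and 16% below, so the unmodified class stood little above the background and the m6A class further. The other selected loci had larger shares above, 57.9% of 1573 in the m6A class (3.43% below) and 38.7% of 920 in the unmodified class (8.04% below). By motif, the loci above were 22 of 65 with a count in the m6A class against 6 of 31 in the unmodified class at AAACU, 5 of 10 against 6 of 40 at AAACA, 9 of 15 against 4 of 16 at UAACU and 2 of 4 against 2 of 13 at UAACC. The shares went the other way at AAACC, with 1 of 5 against 9 of 33, and at UAACA, with 2 of 4 against 4 of 7. Both methylated libraries lay below at 4 m6A-class and 6 unmodified loci with AAACU, and at 1 and 4 with AAACA. The unmodified shares above, 19.4% at AAACU and 15% at AAACA, were near or under the 18.3% of all positions.

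The pooled ratio of the m6A class held in sequences of middle depth, that of the unmodified class did not. The 63 m6A-class loci with a mean total of 100 to 1000 counts had a ratio of 2.24, and the 52 deeper ones 2.60. The unmodified loci in the middle range had 1.04, with the ratios of single libraries between 0.805 and 1.42, and the 55 deeper ones 1.49. The 23 m6A-class and 100 unmodified loci under 100 counts summed to at most 1.51 CPM in any library, too little for a comparison.

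Each sequence was carried by up to 3 oligonucleotides with different tags, which share the sequence and are not replicates of the treatment. At the 12 called m6A-class loci, 33 of 34 oligonucleotides with a count at position 51 were higher in the methylated libraries, and only SETD3 had 1 that was not. At the 5 called unmodified loci all 12 were higher. At the tested loci without a call the numbers were 44 of 55 and 36 of 58. The counts of a locus were spread unevenly over its tags: at YWHAH they went from 429 to 1578 in 1 oligonucleotide, from 14 to 60 in another and from 11 to 53 in the third, libraries of a group summed. At ZSCAN25 they went from 11 to 60 and from 21 to 88 in a pair of oligonucleotides, and the third reached 431. All 6 oligonucleotides of these 2 loci thus moved the same way.

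Other adenosines of the same sequences rose as well. The 407 sequences held 1093 further DRACH adenosines, of which 188 were tested, 72 were higher in the methylated libraries and 2 lower (edgeR, Benjamini-Hochberg adjusted). In the m6A class these were 38 higher of 93 tested, with a pooled ratio of 2.74, and in the unmodified class 34 of 95, with 2.06. GGACH adenosines contributed 41 of the 72, out of 60 tested, and had a ratio of 3.77. GAACH gave 9 of 32, AGACH 11 of 36, UGACH 5 of 33, AAACH 4 of 21 and UAACH 2 of 6. The shares called higher, 40.9% and 35.8%, were near those of other DRACH adenosines in the other selected sequences, 38.6% and 35.5%, against 3.7% of all sites, so they are not particular to the members. Selected sequences of every motif held 269 testable AAACH and UAACH adenosines outside position 51, and 57 of them were higher, with a pooled ratio of 1.63. The adenosine at -1 of the members, which is not followed by C, was tested at 61 loci and higher at 1.

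The authors also exchanged the motif in some sequences, and 18 of the unmodified members were the original of such permutated versions. Most held almost no counts: 12 of the 18 had none in their own motif, and 11 of the 72 versions, at 4 loci, had 10 or more over the 4 libraries. Of these 11, 9 had both methylated libraries above both unmethylated ones, and the other 2, both versions of USP11, did not, with 4, 11, 8 and 6 counts for its GGACU version. A version with few unmethylated counts reached 10 only through its methylated counts, so the 9 describe the versions that passed this minimum. Across all positions of the pool with a count, without that minimum, 18.3% were above. USP11 was named after its values were seen. VARS1 had 5, 3, 46 and 98 counts with its own AAACC (unmethylated 1 and 2, then methylated 1 and 2). With GAACU in its place the counts were 2, 4, 28 and 50, with GGACA 0, 1, 22 and 56, and with GGACU 0, 1, 15 and 17. All 4 versions had higher counts in both methylated libraries. VDAC2, a channel of the outer mitochondrial membrane named after its values were seen, had 2, 3, 8 and 5 counts with AAACC. Its GAACU version had 0.286, 0.831, 11.1 and 7.92 CPM, the highest levels of the set. Its GGACA version had 0, 0, 15 and 14 counts and its GGACU version 1, 0, 69 and 59. These versions of VDAC2 thus had more counts with the enzyme than the original, but their sequence totals were higher too, 6050, 1931 and 2484 against 562 in methylated replicate 1. In the permutated class, the 50 sequences that carried AAACC had a pooled ratio of 1.58 (1.32 to 1.92) and the 50 that carried UAACC 2.58 (2.21 to 2.98).

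The members differed from the GGACH loci in composition as well as in motif. Their 141 bases had a median GC content of 50.4% in the m6A class and 46.1% in the unmodified class, against 59.6% and 61.7% at GGACH. The median predicted probability that the selected adenosine is paired was 0.069 and 0.162, against 0.220 and 0.328, by ViennaRNA. At GAACH, which also has A at -1, it was 0.083 and 0.099, so low pairing is not particular to the members. GGACH loci were also tested more often, at 40.6% and 30.4%, against 22.5% and 9.29% of the members. Motif, composition, pairing and depth therefore moved together, and their separate parts in the ratios were not tested.

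Within the members, sequences richer in G and C had the larger ratio. In the m6A class the 73 loci with at least 50% GC had 2.72 (2.40 to 3.12) and the 65 below it 1.33 (1.098 to 1.60). In the unmodified class the 100 loci above had 1.47 (1.30 to 1.69), or 1.91 without IQCC, and the 169 below 1.099 (0.807 to 1.55). With every locus included, the ranges of the unmodified class overlap. The loci below 50% GC summed to means of only 9.95 CPM (m6A class) and 8.65 CPM (unmodified class) without the enzyme. The depth of sequencing ran with GC content, since 29 of the 31 tested m6A-class loci and 22 of the 25 tested unmodified loci had at least 50% GC. By pairing, the 27 m6A-class loci with a probability of at least 0.5 had a ratio of 2.17 (1.62 to 2.93). The others had 2.71 (2.48 to 2.99), or 2.53 without YWHAH. The ranges with every locus included overlap, but GPRIN1 held 66.4% of the counts of the 27 paired loci. Its own ratio of 2.75 was above theirs, so the rest of the 27 had a ratio below 2.17, which was not computed. In the unmodified class the 82 paired loci had 1.34 and the other 187 had 1.45, or 1.87 without IQCC. By the base before the motif, m6A-class ratios ran from 1.75 after G to 2.96 after A, and unmodified ratios from 0.992 after U, 1.75 there without IQCC, to 2.17 after G.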

How the data were processed

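The 4 libraries were 2 unmethylated and 2 methylated miCLIP2 libraries of 1 pool of in vitro transcribed oligonucleotides. The authors deposited raw counts per position, 141 positions for each oligonucleotide and library, without normalization. FastQC 0.11.8, STAR 2.7.3a and bedtools 2.27.1 are named per the submitters' processing notes. Which tool did what and whether duplicate reads were removed is not stated there, and the genome build is likewise not given. Positions are the authors' coordinates.

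Counts were summed over the 3 tags of a sequence, and the columns for each library were used as deposited. Where 2 or more of the 4 libraries held 10 or more counts, a site entered the quasi-likelihood F test of edgeR 4.0.16 (TMM scaling, group only, library totals of 10483825 to 13265092 counts), with Benjamini-Hochberg adjustment over all 142938 sites at 0.05. Standard errors are the log2 change divided by the square root of F. Pooled sums are CPM, compared by the exact permutation test over libraries. Intervals of ratios are exact, at 95%, and cover counting error only, since reads are not known to be independent molecules. Pairing was computed with ViennaRNA 2.7.2 on the 141 bases. Genes come from RefSeq spans of GRCh38.p14, irrespective of strand and used for names only; 98.7% of the 3488 coordinates fell within a gene, against 66 to 72.2% after shifts. Exons and UTRs were not analysed here.

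Named were all called loci, the tested locus with the highest mean CPM of each 5-mer and class, and the 3 with the highest mean CPM without a call; others are said to be named later. The members, motif lists and tests were chosen with earlier results of these data known. Alternatives were DESeq2 1.42.0, library totals, RLE scaling, other count minimums, single oligonucleotides, sequence totals as offset, a replicate block and leaving out each library. The replicate numbers did not pair the libraries: deviations of same-numbered libraries correlated at -0.084 over the tested sites. Replicates differed by more than sampling noise, with chi-square per degree of freedom of 44.1 and 38.4 over sequence totals. The scripts were tested on simulated data.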

Additional observations from a re-analysis of the deposited data

How the results depend on the processing

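The gain of the pooled m6A class stayed between 1.12 and 1.54 on the log2 scale, that of the unmodified class between 0.33 and 0.86, and their difference between 0.42 and 0.87, over 9 alternatives each. Weighting loci equally turned the difference from GAACH in the m6A class to -0.037, from AGACH and UGACH in the unmodified class to -0.057 and -0.018, and between A and U at -2 to -0.308 in the m6A class and -0.217 over both classes. With the replicate block, the first pair of libraries gave -0.130 for AGACH, -0.121 for UGACH and -0.023 for A against U over both classes. The block called 12 and 5 loci, the same as without it, and changed no other call. Leaving out single libraries gave -0.037 to 0.245 for AGACH (unmodified), -0.086 to 0.119 for A against U over both classes, 5 to 12 higher calls in the m6A class, 1 to 7 in the unmodified class and 0 to 1 lower there (ZBTB44, without unmethylated replicate 2).

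Chosen after seeing the data, leaving out the leading locus of a 5-mer moved the ratio to 2.10 (AAACC), 2.49 (AAACU), 2.66 (UAACA) and 2.84 (UAACC) in the m6A class and to 1.27 (AAACA), 1.55 (UAACC) and 2.04 (UAACU) in the unmodified class. Per 1000 counts the last class had 1.12 (AAACA) and 1.89 (UAACU), and the difference of C at +2 in the m6A class became 0.019 without the leading loci. The higher calls of the unmodified class fell to 3 with DESeq2, with at least 50 counts and against sequence totals. The lower calls among other DRACH adenosines were 0 against totals in both classes and 0 with DESeq2 in the m6A class. DESeq2 gave no adjusted p for FRMD8, PALM2AKAP2 and PDIK1L. The cause of these changes was not tested.

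Depth limited the single loci, since 164 members had no count at the selected adenosine and 56 could be tested, and 2 libraries per group kept every pooled comparison at an exact p of 0.33 or above. Of the 27 named loci, 252 comparisons with an alternative kept their side of the threshold, 19 lost a call and 1, chr19:16576616, gained it. The 252 include loci without a call that stayed without one. Settings that gave a locus no adjusted p were not counted. AKNA, MED11, PALM2AKAP2, FRMD8, VARS1 and PDIK1L, all called, could not be tested when either methylated replicate was left out.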
